A study of Mus musculus with 6 samples.

Results

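MC3T3-E1 cells that were kept without flow are the subject here, as 2 of the 6 arrays of the series. They were chosen by their label, no flow, with 1 array at 0 h and 1 array at 1 h post flow, and no measured value entered the choice. MC3T3-E1 is a mouse line of osteoblast precursors derived from newborn skull bone, and cells of 1 clone were grown in 6-well plates in alpha-MEM with serum. Flow came from an orbital shaker kept in the incubator, and flow plates were moved onto it an hour ahead. Whether the no flow plates stood there too, and at what culture time each array's cells were harvested, is not given in the sources used here, so the hour between the no flow arrays is that of their labels. The 4 arrays used for comparison come from the same line after continuous flow for 1 h, or after rest-inserted flow with 4 bouts of 5 min of flow, each followed by 10 min of rest, again at 0 h and 1 h after flow ended. Each array was hybridized with RNA pooled from 3 experiments, so each condition has 1 array and the spread between experiments cannot be measured. For each gene the probe with the highest mean log2 intensity was used, which gave 8565 genes, and 7613 of these were detected (detection p under 0.01) on both no flow arrays. A further 599 were detected on 1 of the 2 and 353 on neither.

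Osteoblast precursors make and secrete the collagen-rich matrix of bone, and the transcription factors Runx2 and osterix (Sp7) are required for their differentiation. Sox9 and type II collagen (Col2a1) are known from the cartilage lineage, and podoplanin (Pdpn) from early osteocytes. Precursors also secrete factors that act on other bone cells, such as osteoprotegerin, which restrains the formation of osteoclasts.

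The arrays detected 14426 of 45281 probes at 0 h without flow and 13606 at 1 h, and 13472 to 14205 on the 4 flow arrays. Median background-subtracted signals of the detected probes lay between 105 and 123. A level here is a quantile-normalized log2 intensity, with values under 10 set to 10 (log2 3.32). Levels of different genes come from different probes, which bind their targets with different strength, so a rank is a rank of signal and not of RNA molecules. Among 3727 further probes of 2687 genes, the further probe was a median of 1.42 log2 dimmer than the brightest probe of its gene, with a largest gap of 8.28.

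The static baseline was led by genes of translation, the cytoskeleton and, among genes known from bone, the matrix. Over the 7613 genes the median level was 7.41, with quartiles of 6.02 and 8.91, and the 25 brightest genes lay between 13.72 (Rps19) and 14.37 (Rplp1). Rplp1, a protein of the ribosomal stalk, read 14.34 at 0 h and 14.40 at 1 h. Eef1a1, the factor that brings aminoacyl-tRNA to the ribosome, read 14.22 and 14.26. Acta2, smooth muscle alpha-actin, ranked 3 with 14.26 and 14.23, and Actb, cytoplasmic beta-actin, ranked 12 with 14.02 and 13.94. An actin known from contractile cells was thus among the brightest signals of an osteoblastic line. Bgn, the small leucine-rich proteoglycan biglycan, was the 1 gene of the matrix list among the 25, with 13.68 and 13.77. Several of the 25, such as H2ac24, Ubb-ps, the tubulins, the actins and the ribosomal proteins, belong to families with near-identical copies, and their probes may also bind RNA of those copies. Of 49 cytosolic ribosomal protein genes 43 were among the 856 brightest genes, the upper 10% of all, as were 33 of 52 genes of oxidative phosphorylation.

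**Figure D1:**
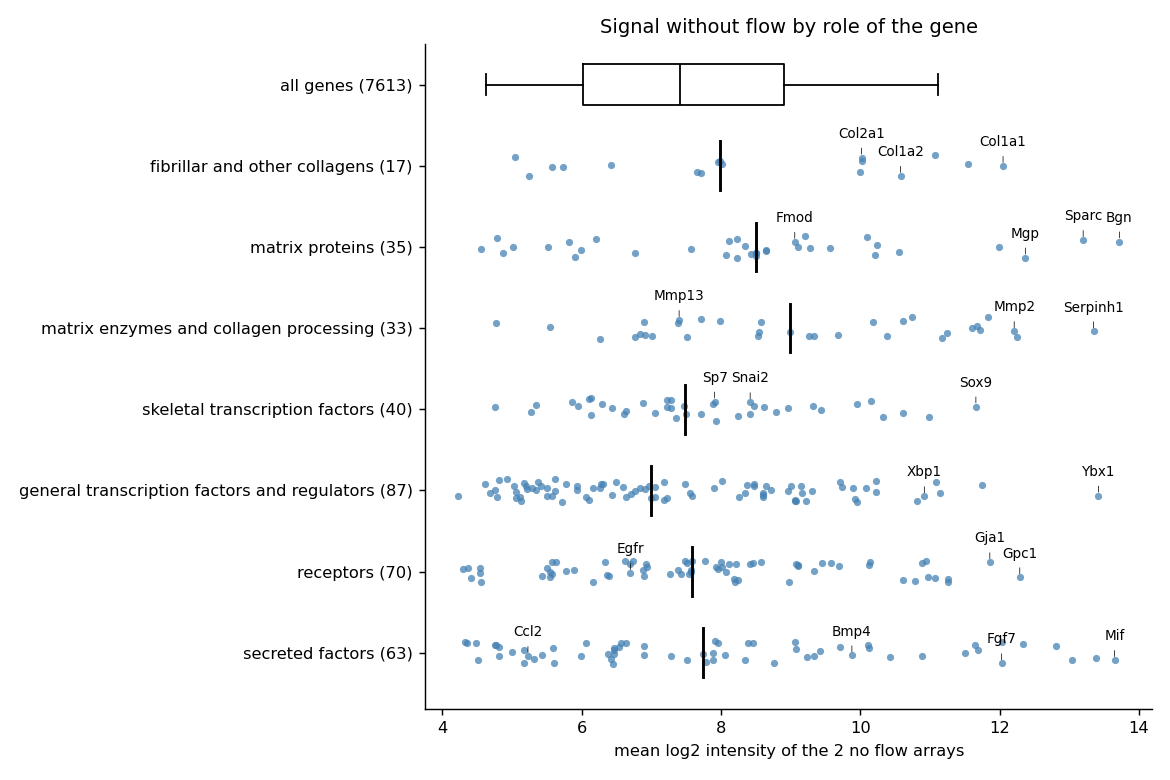
Mean log2 intensity of the 2 no flow arrays (horizontal axis) for the genes of 7 role lists and, as a box, for all 7613 genes detected on both arrays (box, quartiles and median; whiskers, 5th to 95th percentile). Each point is a gene, black bars are list medians and the number of genes is in parentheses; matrix proteins and matrix enzymes had medians of 8.50 and 8.99 against 7.41 over all genes.

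Most of the detected collagen genes were brighter than the median gene. Of 27 collagens listed, 19 were in the table and 17 were detected on both arrays. The 17 had a median level of 7.99, and 12 of them (70.6%) lay above the median of all genes. Col1a1, the main chain of type I collagen, read 12.09 at 0 h and 12.02 at 1 h and ranked 160 of 8565. Col1a2, its partner chain, read 10.68 and 10.49. Both chains of the chief bone collagen thus gave strong signal on each array. Col5a1, of the type V collagen that assembles with type I fibrils, read 11.55 and 11.52, and Col6a1, of the beaded-filament type VI collagen, 11.19 and 10.96. Col2a1, the cartilage collagen, read 9.68 and 10.35 and ranked 936, in the upper 13.8% of genes on the 0 h array alone and in the upper 8.55% on the 1 h array alone. Col3a1, which is abundant in loose connective tissue, was dim here with 5.05 and 5.45.

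Non-collagenous matrix proteins had a median level of 8.50, with 25 of 35 detected genes above the median of all genes. After Bgn came Sparc, the collagen-binding glycoprotein osteonectin, with 13.21 and 13.19. Mgp, matrix Gla protein, an inhibitor of calcification, read 12.59 and 12.14. Ogn, the leucine-rich proteoglycan osteoglycin, read 12.16 and 11.81. Sparc was nearly level between the time points, whereas Mgp and Ogn were lower at 1 h. Thbs2, thrombospondin 2, read 10.56 on each array, and Fn1, fibronectin, 10.30 and 10.18.

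Enzymes that build or cut the matrix had the highest median of the 7 role lists, 8.99 over 33 detected genes, and 13 of the 33 were among the 856 brightest genes. Serpinh1, the collagen chaperone HSP47, read 13.31 and 13.39. P4hb, the beta subunit of prolyl 4-hydroxylase, read 12.24 and 12.26, and Plod3, a lysyl hydroxylase of collagen, 11.82 and 11.84. All 3 act in the folding or modification of collagen. Mmp2, gelatinase A, read 12.25 and 12.17, and the metalloproteinase inhibitors Timp2 and Timp1 read 11.65 and 11.79, and 11.58 and 11.78. Lox, which cross-links collagen, read 10.48 and 10.75. Mmp13, collagenase 3, was far dimmer, with a mean of 7.40 close to the median of all genes.

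Among transcription factors of the skeletal lineages, Sox9 was the brightest. Of the 75 listed, 40 were detected on both arrays, with a median of 7.48 close to the 7.41 of all genes. Sox9 read 11.77 at 0 h and 11.56 at 1 h and ranked 235, in the upper 2.74% of genes, or the upper 9.24% when all its probes were averaged. Sp7, osterix, read 7.89 and 7.94 and ranked 3199, in the upper 37.3%, or 40.8% with its probes averaged. The factor known from cartilage thus ranked above the factor known from osteoblasts under both rules for probes. Cbfb, the partner subunit of the Runx factors, read 10.94 and 11.01, and Atf4, which osteoblasts need for matrix synthesis, 10.65 and 10.59. Prrx1, a factor of limb and skull mesenchyme, read 10.02 and 9.89. Runx2 was not among the genes analysed here. Of 126 general transcription factors and regulators, 87 were detected with a median of 6.99, led by Ybx1, a Y-box RNA- and DNA-binding protein, with 13.43 and 13.41. Xbp1, a factor of the secretory stress response, read 10.91 and 10.93.

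Receptors and surface proteins had a median of 7.58 over 70 detected genes. Gpc1, the heparan sulfate proteoglycan glypican 1, read 12.29 and 12.30. Gja1, connexin 43, the main gap junction protein of bone cells, read 11.82 and 11.90. Axl, the receptor tyrosine kinase for Gas6, read 11.08 and 11.44. Of these 3 surface proteins Axl was the 1 that differed by more than 0.1 between the arrays. Cd44, the hyaluronan receptor, read 11.26 and 11.25, Fgfr2, a fibroblast growth factor receptor, 11.13 and 11.02, and F2r, the thrombin receptor, 10.90 and 11.04. The list of mechanosensing genes and calcium channels was dimmer, with a median of 6.33 and 4 of 19 detected genes above the median of all genes. Its brightest after Gja1 was Cav1, caveolin 1, with 10.69 and 10.67, and Piezo1, a stretch-activated cation channel, read 6.91 and 7.19.

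Secreted factors covered nearly the whole range of signal, from 4.33 to 13.65 over 63 detected genes, with a median of 7.75. Mif, the macrophage migration inhibitory factor, read 13.65 on each array. Lgals1, galectin 1, read 13.26 and 13.50, and Ptn, pleiotrophin, a heparin-binding growth factor of developing bone, 13.18 and 12.90. Serpinf1, the anti-angiogenic factor PEDF, read 12.82 and 12.80, and Fgf7, keratinocyte growth factor, 12.00 and 12.06. Growth factors known to act on osteoblasts were thus among the strong signals of the static cells. Igf1 read 11.01 and 10.76, and Bmp4, a bone morphogenetic protein, 10.09 and 9.66. Tnfrsf11b, osteoprotegerin, the decoy receptor for RANKL, read 7.65 and 8.27. Its ligand Tnfsf11 (RANKL) was detected on neither no flow array, at 3.47 and 3.73.

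The labelled cell type was checked against its markers. Col1a1, Sparc and Sp7 were detected on both arrays, as were 16 of the 22 osteoblast differentiation genes in the table, a smaller share than the 7613 of 8565 over all genes. The other 14 of 36 listed were not in the table, among them Runx2, Spp1 and Bglap. The paper measured RUNX2 and OPN (Spp1) in these cells by RT-PCR, so absence from the table does not show that a gene was silent. Alpl, the alkaline phosphatase of mineralizing osteoblasts, was not detected on both, at the floor of 3.32 at 0 h and 4.26 at 1 h, and Ibsp, bone sialoprotein, read 5.69 and 5.35. Genes known from cartilage stood beside them, since Sox9, Col2a1 and Sox5 were detected on both arrays, Col11a2 on neither and the other 14 of 18 chondrocyte markers were not in the table. Pdpn read 11.46 and 11.30, in the upper 3.55% of genes, and was the 1 osteocyte marker of 6 in the table. Contractile genes were bright, with 8 of 14 among the 856 brightest genes, among them Tpm1, a tropomyosin, with 12.39 and 12.26. Of 13 tendon and fibroblast genes 7 were detected, led by Thy1, a surface protein of mesenchymal cells, with 9.61 and 9.54.

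Few markers of other cell types were in the table. A gene can be missing from it because no probe passed the detection filter or none carried a single gene symbol. Of 78 listed cytosolic ribosomal protein genes 49 were in it, so absence from the table is no measure of expression. Of 11 adipocyte markers 1 was in the table and it was detected on neither array (Plin4), and of 12 endothelial markers 1 was in the table (Egfl7, 5.05 and 4.55). Of 10 neural markers Map2 was in the table, with 6.19 and 6.09. Of 15 skeletal muscle markers 4 were in the table, and Tnnc1, a troponin C, and Acta1, skeletal actin, were detected on both arrays with 8.55 and 7.90, and 5.11 and 4.62, and Myog and Mylpf were not. Of 17 macrophage and osteoclast markers 5 were in the table. Ctsk, cathepsin K, read 9.01 and 8.97, Mmp9 and Cd14 were detected on both arrays but dimmer, and Csf1r and Lyz2 were detected on 1 of the arrays. Of 10 epithelial markers 3 were in the table, and Krt14, a keratin of basal epithelium, read 8.16 and 8.66. Whether many or few cells of the culture carried such a signal was not tested, and fewer cells of a type and less RNA per cell cannot be told apart.

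The next comparison was between the static arrays themselves, 1 h minus 0 h. Their levels were alike for most genes, with a correlation of 0.9946 across the 7613 genes, which are not independent replicates. The difference had an SD over genes of 0.209 and a median of 0.00065, and 4550 genes (59.8%) lay within 1.1-fold. It ran from -1.29 to 1.14 on the log2 scale. After continuous flow the same difference had an SD of 0.246 and after rest-inserted flow of 0.228. By a limit of 1.5-fold (log2 0.58), 77 genes (1.01%) were higher at 1 h and 72 (0.946%) lower. The split depends on the scaling. Median scaling in place of quantile normalization, by the median of each array's own detected probes, moved the median of all genes to -0.17. It gave 24 higher and 237 lower. The detected probes were more and dimmer at 0 h (14426, median signal 105) than at 1 h (13606, median 116), which enters this scaling. Without normalization the median of all genes was -0.021, with 62 higher and 87 lower. These counts have no replicate check.

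Most of these genes were dim, and the spread grew as signal fell. Below a mean log2 of 6 the SD of the difference was 0.314 over 1883 genes, and 123 of the 149 genes past 1.5-fold lay there. At a mean of 10 or more it was 0.112 over 943 genes, with 3 genes past 1.5-fold. Of the 15 largest positive differences among genes detected on all 6 arrays 14 had a mean under 6, as had 9 of the 15 largest negative ones. The highest difference was that of Rrp1, a ribosomal RNA processing factor, which read 4.41 and 5.55, with differences of 0.20 and -0.10 after continuous and rest-inserted flow. Dut, the dUTPase that keeps uracil out of DNA, read 4.25 and 5.32, with 0.13 and 0.14 after flow. Neither step was matched in size on the flow arrays. Sirt6, a deacylase of chromatin, read 4.68 and 5.50, but its other probe differed by -0.48.

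**Figure D2:**
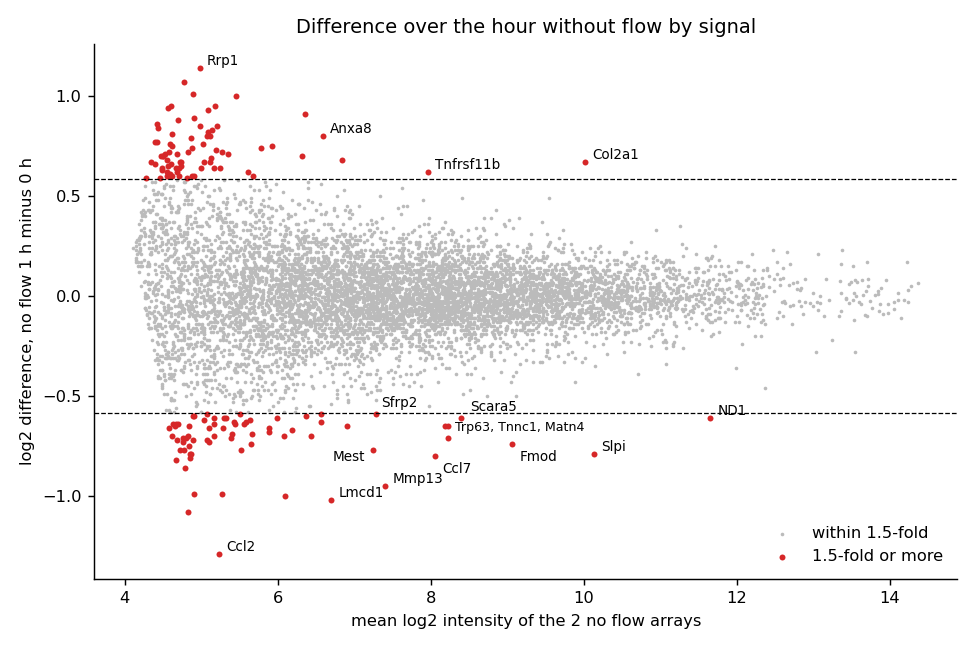
Difference of log2 intensity between the no flow arrays, 1 h minus 0 h, against the mean log2 intensity of both, for 7613 genes. Dashed lines mark 1.5-fold (log2 0.58); 149 genes lie on or past them (red), and 13 of these have a mean of 7 or more.

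The flow arrays share no array with the no flow difference, and their own 1 h minus 0 h difference also holds whatever happens as the response to flow fades. Over all 7613 genes, 2789 (36.6%) had the same sign without flow, after continuous flow and after rest-inserted flow. Of the 77 genes higher without flow, 28 (36.4%) had the same sign after both kinds of flow, close to the share over all genes. Of the 72 genes lower without flow, 40 (55.6%) did. The share also differed with signal. Below a mean of 6, 47 of the 123 genes past 1.5-fold (38.2%) had the same sign in all 3 conditions, against 30.2% of all genes of that range. Between 6 and 7 it was 9 of 13, and at 7 or more 12 of 13, against 34.9% and 39.9% of all genes of those ranges, whose limits were set after the values were seen. Across genes, as a description over 7613 points, the no flow difference correlated at 0.193 with that after continuous flow and at 0.154 with that after rest-inserted flow, and at 0.325 and 0.315 among the 4384 genes with a mean of 7 or more.

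**Figure D3:**
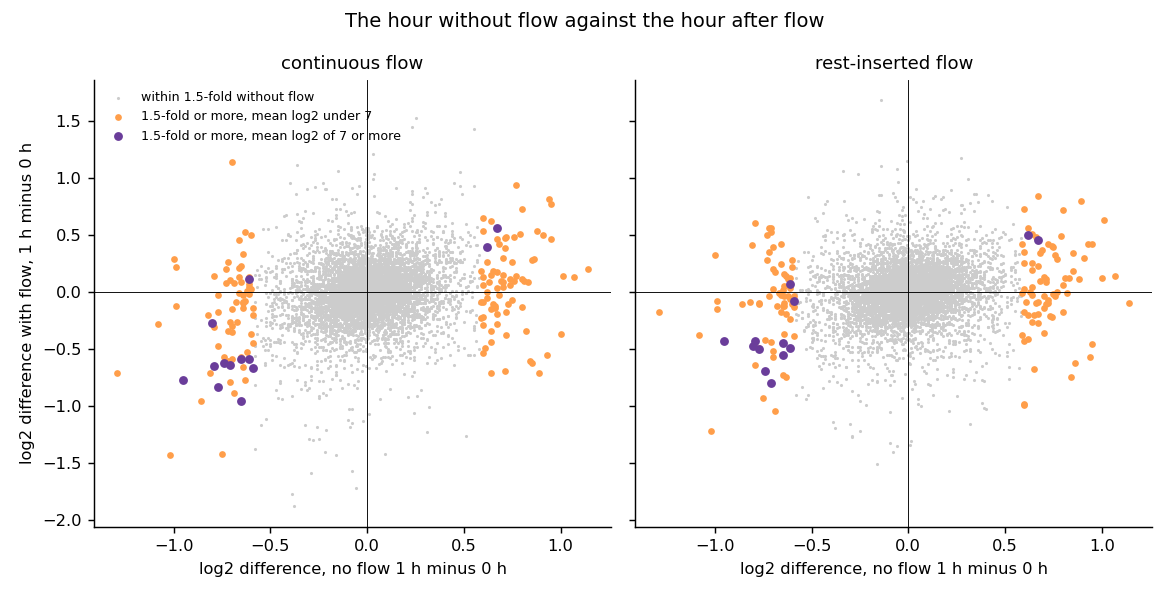
Log2 difference, 1 h minus 0 h, after continuous flow (left) and rest-inserted flow (right) against the difference without flow, for 7613 genes. Purple points are the 13 genes past 1.5-fold without flow with a mean log2 of 7 or more, of which 12 have the same sign in all 3 conditions, and orange points are the 136 dimmer genes past 1.5-fold.

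The 13 brighter genes past 1.5-fold comprised 11 that were lower and 2 that were higher at 1 h. For 10 of the 13 all 3 of the 0 h arrays read above all 3 of the 1 h arrays and for 2 all read below. Over the 7613 genes these shares were 10.1% and 10.2%, but the no flow arrays that chose the 13 are among those counted, so nothing is read from the comparison. Genes for matrix proteins, a collagenase and other secreted proteins were among them. Mmp13, which cuts fibrillar collagen, read 7.88 at 0 h and 6.93 at 1 h without flow, 7.60 and 6.83 with continuous flow and 7.65 and 7.22 with rest-inserted flow. Slpi, a secreted inhibitor of serine proteases, read 10.53 and 9.74 without flow, 10.30 and 9.66 with continuous flow and 10.24 and 9.81 with rest-inserted flow. Fmod, fibromodulin, a leucine-rich proteoglycan that binds collagen fibrils, read 9.43 and 8.69 without flow, 9.31 and 8.69 with continuous flow and 9.38 and 8.69 with rest-inserted flow. In each of these every 0 h array was above every 1 h array, and for Fmod the 1 h arrays were level to the second decimal. With all probes of a gene averaged, the no flow difference of Mmp13 was -0.51 in place of -0.95 and that of Fmod -0.54 in place of -0.74, both short of 1.5-fold. Matn4, the matrix adaptor matrilin 4, read 8.59 and 7.88 without flow, 8.30 and 7.65 with continuous flow and 8.57 and 7.77 with rest-inserted flow. The further probe of Fmod, at a mean level of 6.39, differed by -0.34 without flow.

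Mest, an imprinted gene of mesodermal tissue, read 7.63 and 6.85 without flow, 7.47 and 6.64 with continuous flow and 7.47 and 6.97 with rest-inserted flow, and its 2 further probes differed by -0.51 and -0.60 without flow. Trp63, the p63 factor known from stratified epithelium, read 8.51 and 7.86 without flow, 8.49 and 7.90 with continuous flow and 8.55 and 8.00 with rest-inserted flow. Scara5, a scavenger receptor that takes up ferritin, read 8.71 and 8.10 without flow, 8.64 and 8.05 with continuous flow and 8.69 and 8.20 with rest-inserted flow. The steps of Trp63 and Scara5 were nearly alike with and without flow, but with all probes averaged the no flow difference of Scara5 was -0.35 in place of -0.61. Tnnc1 read 8.55 and 7.90 without flow, 8.58 and 7.62 with continuous flow and 8.44 and 7.99 with rest-inserted flow. Sfrp2, a secreted modulator of Wnt signals, read 7.58 and 6.98 without flow, 7.56 and 6.89 with continuous flow and 7.20 and 7.12 with rest-inserted flow. Ccl7, a monocyte-attracting chemokine, read 8.46 and 7.66 without flow, 8.14 and 7.87 with continuous flow and 8.26 and 7.79 with rest-inserted flow. The 0 h and 1 h arrays did not overlap for any of these, though those of Sfrp2 after rest-inserted flow were close, and the no flow arrays marked both ends of the range of Ccl7.

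The 2 brighter genes that were higher at 1 h were Col2a1 and Tnfrsf11b. Col2a1 read 9.68 and 10.35 without flow, 9.80 and 10.36 with continuous flow and 9.82 and 10.27 with rest-inserted flow, a no flow difference of 0.67. Its 2 further probes, at mean levels of 9.41 and 8.90, differed by 0.62 and 0.47 without flow. All 3 probes thus had the same direction. Tnfrsf11b read 7.65 and 8.27 without flow, 8.00 and 8.39 with continuous flow and 7.82 and 8.32 with rest-inserted flow, a no flow difference of 0.62. Every 1 h array was above every 0 h array for both genes.

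**Figure D4:**
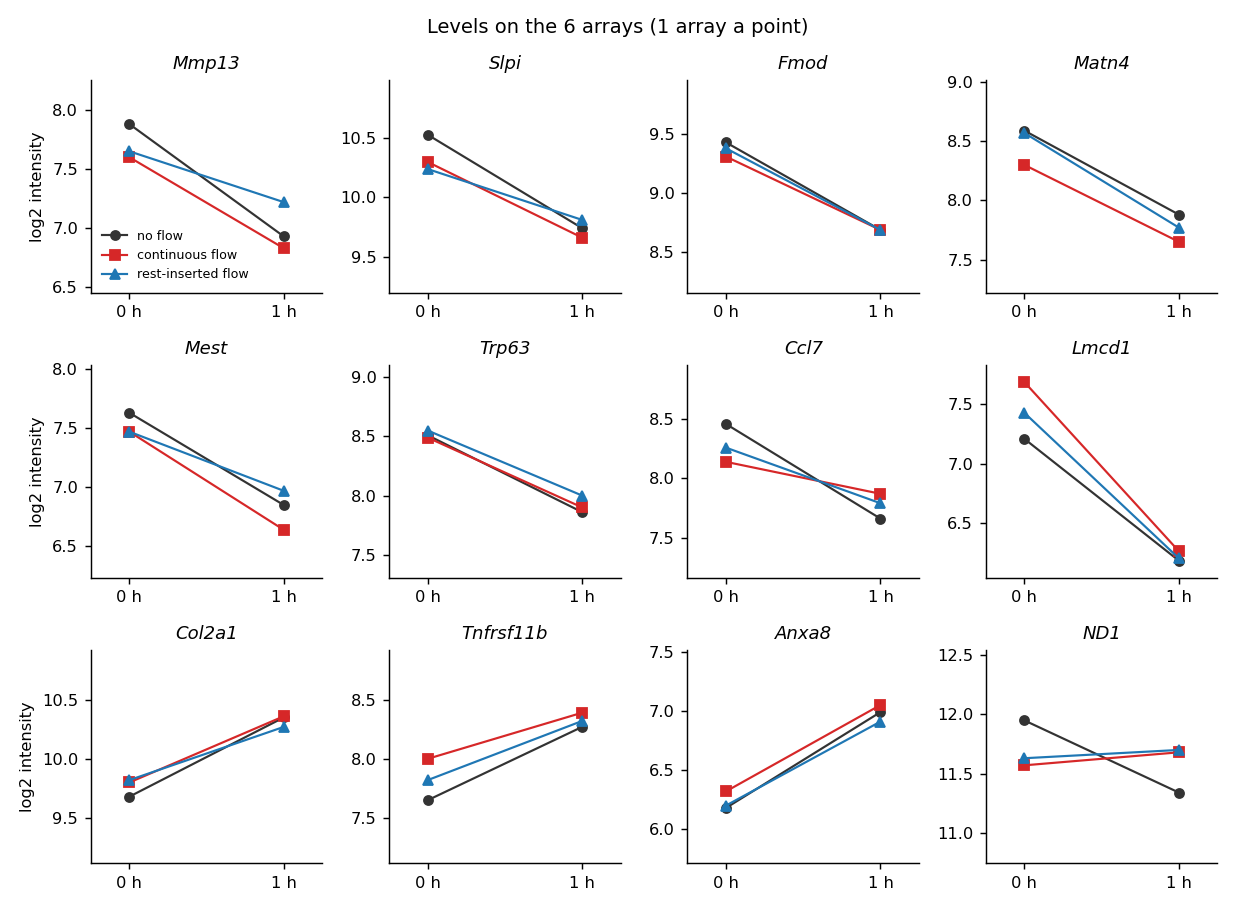
Log2 intensity of 12 genes on the 6 arrays at 0 h and 1 h after flow (1 array a point, lines join the arrays of a condition). Mmp13, Slpi, Fmod, Matn4, Mest, Trp63, Ccl7 and Lmcd1 read lower and Col2a1, Tnfrsf11b and Anxa8 higher at 1 h in all 3 conditions, whereas ND1 read lower at 1 h without flow alone, with 11.95 and 11.34.

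ND1 was the exception among the 13. This mitochondrial gene for a subunit of complex I read 11.95 and 11.34 without flow, 11.57 and 11.68 with continuous flow and 11.63 and 11.70 with rest-inserted flow, so that the no flow arrays were the highest and the lowest of the 6. Other mitochondrial genes had no flow differences of -0.072 (CYTB), -0.22 (ND4), 0.048 (ND5), -0.31 (COX2) and -0.16 (ATP6), all smaller in size than that of ND1. Sprr2a1, a small proline-rich protein of epithelial envelopes, had the same pattern at a lower level, with 6.61 and 5.60 without flow, 6.05 and 6.33 with continuous flow and 6.00 and 6.32 with rest-inserted flow.

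Of the 149 genes, 7 were past 1.5-fold in the same direction in all 3 conditions, and 40 of all 7613 genes were past it after both kinds of flow in the direction of their no flow sign. The 7 were Anxa8, which was higher at 1 h, and Fmod, Matn4, Lmcd1, Csrnp1, Lmod1 and Pdp1, which were lower. Lmcd1, a LIM-domain regulator of transcription, read 7.21 and 6.18 without flow, 7.69 and 6.26 with continuous flow and 7.43 and 6.20 with rest-inserted flow, and its 2 further probes differed by -0.62 and -0.41 without flow. Anxa8, a calcium- and phospholipid-binding annexin, read 6.18 and 6.99 without flow, 6.32 and 7.05 with continuous flow and 6.20 and 6.91 with rest-inserted flow. The steps of Anxa8 were nearly equal, whereas Lmcd1 was higher at 0 h after flow than without it and nearly level between conditions at 1 h. Pdp1, a phosphatase that activates pyruvate dehydrogenase, read 6.88 and 6.25 without flow, 7.10 and 6.34 with continuous flow and 6.95 and 6.20 with rest-inserted flow, but its further probe, at a mean level of 5.05, differed by 0.43. Csrnp1, an immediate early nuclear protein, and Lmod1, an actin nucleator of smooth muscle, were dim, with mean levels of 4.84 and 5.40.

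Promoters are printed for 3 genes whose difference had the same sign in all 3 conditions, Mmp13 and Fmod lower and Anxa8 higher at 1 h. They are RefSeq windows of 250 bases before to 50 bases after the annotated start (GRCm38.p6), read on the strand of the gene, in lower case with matches to 3 motifs in capitals. The motifs were the AP-1 site TGANTCA, the RUNX core TGTGGT and the TATA box TATAAA, searched on both strands. Mmp13 (chr9:7272264-7272563, plus strand) held 1 of each, with the first base of the RUNX, AP-1 and TATA matches 118, 35 and 16 bases before the start. Anxa8 (chr14:34085729-34086028, plus strand) held 1 RUNX match, 15 bases before it, and both RUNX matches lie on the strand opposite to the one printed. Fmod (chr1:134037004-134037303, plus strand) held none, nor did the windows of Slpi and Lmcd1, which are not printed. Of all 32851 windows 7.81% held the AP-1, 16.8% the RUNX and 13.6% the TATA letters. The matches are letters in a window and not measured sites.
Mmp13: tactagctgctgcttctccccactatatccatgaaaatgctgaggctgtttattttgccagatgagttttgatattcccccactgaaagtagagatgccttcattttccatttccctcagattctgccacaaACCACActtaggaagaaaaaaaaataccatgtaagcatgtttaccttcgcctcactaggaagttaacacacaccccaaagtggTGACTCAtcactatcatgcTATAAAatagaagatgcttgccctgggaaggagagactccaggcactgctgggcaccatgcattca
Fmod: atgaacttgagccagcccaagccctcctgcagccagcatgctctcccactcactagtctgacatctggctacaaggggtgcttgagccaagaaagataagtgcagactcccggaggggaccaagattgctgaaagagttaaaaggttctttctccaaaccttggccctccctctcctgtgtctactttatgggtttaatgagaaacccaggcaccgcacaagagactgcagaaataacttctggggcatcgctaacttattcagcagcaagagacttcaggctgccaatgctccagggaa
Anxa8: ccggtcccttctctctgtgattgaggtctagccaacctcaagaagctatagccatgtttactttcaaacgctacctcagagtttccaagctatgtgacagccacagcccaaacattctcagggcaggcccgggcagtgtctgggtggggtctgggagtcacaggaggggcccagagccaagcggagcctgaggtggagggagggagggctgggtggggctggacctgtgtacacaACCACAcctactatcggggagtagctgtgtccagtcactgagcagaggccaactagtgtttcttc

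Cytokine and interferon genes were mostly lower at 1 h. Over all genes 49.7% were lower at 1 h without flow, 18.4% were lower in all 3 conditions and 18.3% higher in all 3. Of 16 detected cytokines and NF-kB targets 15 were lower without flow, with a median of -0.14, and 13 and 13 were lower after continuous and rest-inserted flow. Ccl2, the chemokine MCP-1, had the lowest difference of the 7613 genes and read 5.88 and 4.59 without flow, 5.61 and 4.90 with continuous flow and 5.44 and 5.26 with rest-inserted flow. Its signal was low, and its 0 h and 1 h arrays did not overlap. Vcam1, a leukocyte adhesion molecule, read 10.74 and 10.50 without flow. Ccl2 and Ccl7 were the 2 members past 1.5-fold. Of 19 detected interferon-stimulated genes 17 were lower without flow, with a median of -0.20, and 16 and 16 after flow. In all 3 conditions 14 of the 19 (73.7%) were lower and 0 higher. Ifit3, an antiviral RNA-binding protein, read 5.74 and 5.04 without flow and was the 1 member past 1.5-fold. Isg15, the ubiquitin-like modifier, read 6.93 and 6.50, and B2m, the light chain of class I antigens, 12.34 and 12.14.

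The contractile list had 12 of 14 genes lower without flow, with a median of -0.13, and medians of -0.12 and -0.15 after flow. Cnn2, calponin 2, read 9.41 and 9.09 without flow, and Lmod1, the 1 member past 1.5-fold, 5.74 and 5.05. Collagens were lower for 13 of 17 without flow (median -0.11) but for 8 and 9 after flow, with medians of 0.036 and -0.011. Col2a1 was the 1 collagen past 1.5-fold, against the direction of most of its list. Matrix proteins were lower for 22 of 35, and 16 of the 35 (45.7%) were lower in all 3 conditions. Besides Fmod and Matn4 these included Mgp, with differences of -0.46 without flow and -0.41 and -0.26 after continuous and rest-inserted flow. Ogn differed by -0.36, -0.25 and -0.43, and Prelp, a heparin- and collagen-binding leucine-rich protein, by -0.50, -0.47 and -0.44. Bgn, of the same leucine-rich family, was nearly level, with a no flow difference of 0.088.

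Fewer lists had a positive median. Genes of S phase and replication were higher at 1 h for 22 of 28 without flow, with a median of 0.072 and of 0.064 and 0.046 after flow, and 14 of the 28 (50%) were higher in all 3 conditions with 0 lower in all 3. With median scaling, which moved all genes by -0.17, the median of this list became -0.082, still above that of all genes. Mcm4 and Mcm5, of the replicative helicase, read 10.40 and 10.45, and 9.97 and 10.20 without flow. These steps were small, and Dut was the 1 member past 1.5-fold. TGF-beta and BMP targets were higher for 13 of 19 without flow (median 0.11) but had medians of -0.039 and -0.047 after flow. With median scaling their no flow median became -0.071, still 0.094 above that of all genes. Smad6, an inhibitory Smad, read 4.78 and 5.63 without flow, 5.39 and 5.67 with continuous flow and 5.57 and 5.91 with rest-inserted flow. Grem1, the BMP antagonist gremlin, read 8.90 and 9.24 without flow, whereas Bmp4 read 10.09 and 9.66.

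**Figure D5:**
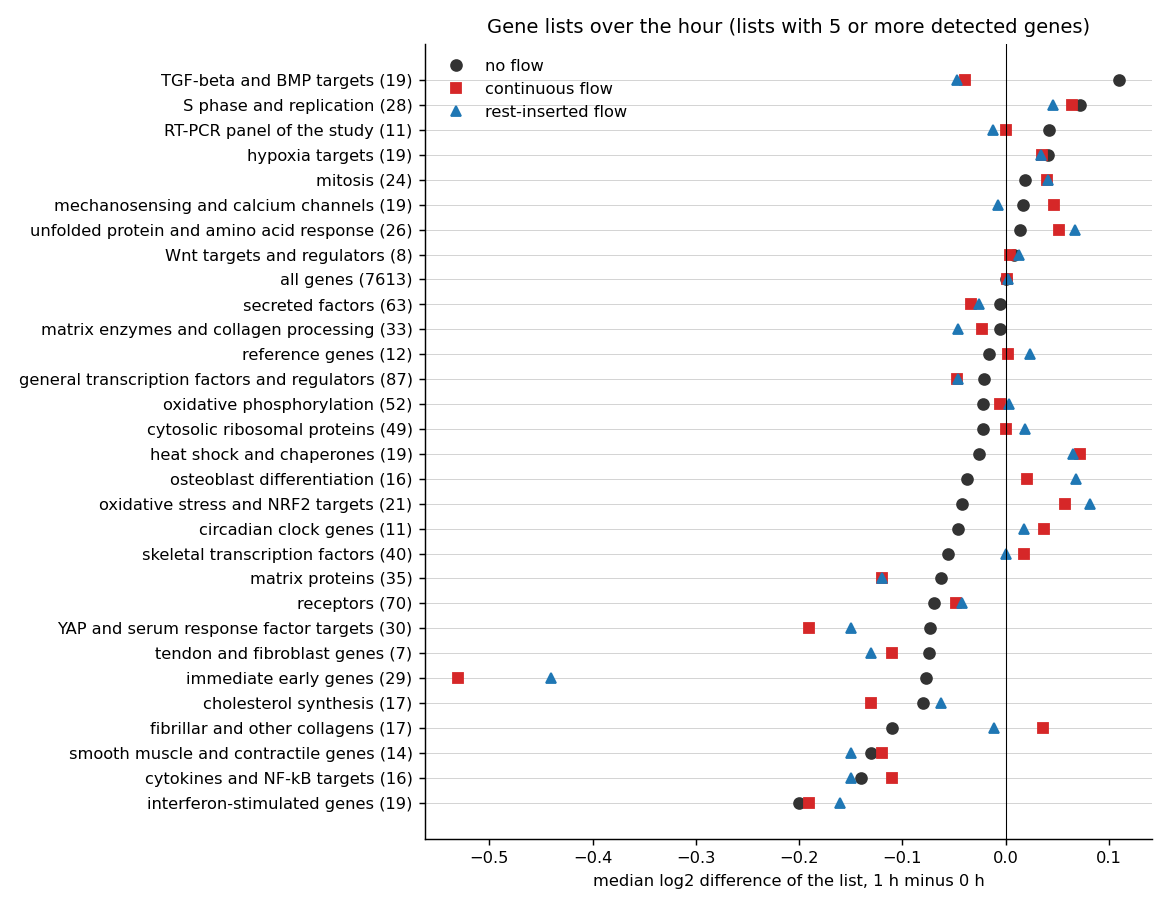
Median log2 difference, 1 h minus 0 h, of each gene list with 5 or more genes detected on both no flow arrays, without flow (black circles), after continuous flow (red squares) and after rest-inserted flow (blue triangles), with the number of genes in parentheses. Interferon-stimulated genes are lowest without flow at -0.20, and immediate early genes part the conditions, at -0.077 without flow against -0.53 and -0.44 after it.

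Immediate early genes, which serum, growth factors or stretch switch on within minutes, had a small median difference without flow. Of 29 detected, 17 were lower without flow, with a median of -0.077, against 25 and 27 after flow, with medians of -0.53 and -0.44. Ccn2, a matricellular growth factor and target of YAP, read 10.04 and 10.13 without flow, 11.90 and 10.48 with continuous flow and 11.05 and 10.34 with rest-inserted flow. Ccn1, its relative, read 8.38 and 8.32 without flow, 9.51 and 7.78 with continuous flow and 9.10 and 7.75 with rest-inserted flow. Both were nearly level between the no flow arrays and far lower at 1 h than at 0 h after flow. Klf6, a zinc-finger factor, differed by -0.31 without flow and by -0.39 and -0.47 after it. Targets of YAP and serum response factor were lower for 22 of 30 without flow, with a median of -0.073, and had medians of -0.19 and -0.15 after flow.

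The other lists with 5 or more detected genes had medians within 0.1 of 0 without flow. They were -0.006 for matrix enzymes, -0.056 for skeletal and -0.021 for general transcription factors, -0.069 for receptors, -0.0056 for secreted factors and -0.038 for osteoblast differentiation. Snai2, a zinc-finger repressor of mesenchyme, read 8.66 and 8.17 without flow, Axl was higher by 0.35, and Egfr, the EGF receptor, read 6.98 and 6.43. Cholesterol synthesis had a median of -0.08, tendon and fibroblast genes -0.074, clock genes -0.046, NRF2 targets -0.042 and heat shock genes -0.026. It was -0.022 each for ribosomal proteins and oxidative phosphorylation and -0.016 for reference genes. Positive medians were 0.042 for the RT-PCR panel of the study, 0.041 for hypoxia targets, 0.019 for mitosis, 0.017 for mechanosensing genes, 0.014 for the unfolded protein response and 0.0079 for Wnt genes. With median scaling these 6 were negative (without normalization, those of mechanosensing and Wnt genes). Median scaling also moved the median of all genes to -0.17, and all 6 lists stayed above it, the Wnt genes by only 0.0006. Dbp, a clock output gene, read 7.16 and 6.67 without flow, and Per1, a core clock gene, 5.51 and 5.74. Krt14 was higher by 0.49 without flow and by 0.46 and 0.52 after flow. Some lists share genes and are not independent of each other.

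At the edge of detection the 0 h arrays held more genes. Without flow 456 genes were detected at 0 h alone and 143 at 1 h alone, and 34 genes were detected on all 3 of the 0 h arrays and on no 1 h array, against 3 the other way. The 0 h arrays also detected more probes in all, 13878 to 14426 against 13472 to 13796, and the part of this in the count was not tested. Lyz2, a lysozyme of macrophages, was 1 of the 34 and read 4.66 and 3.32 without flow, 4.50 and 3.32 with continuous flow and 4.65 and 3.36 with rest-inserted flow. The near-identical Lyz1, whose RNA may bind the same probes, read 6.78 and 6.08 without flow, 6.85 and 6.26 with continuous flow and 6.82 and 6.30 with rest-inserted flow. For Lyz1 all 0 h arrays were above all 1 h arrays. For Lyz2 this follows from how the 34 were chosen, so nothing is read from it. The 34 also held Tap1, the peptide transporter of antigen presentation, with 4.34 and 3.79 without flow, Gbp3, an interferon-induced GTPase, with 4.23 and 3.32, and Tnfaip3, a brake on NF-kB, with 4.77 and 3.32. Tap1 and Gbp3 are on the interferon list and Tnfaip3 is on the cytokine list, outside the counts of members detected on both arrays.

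Each gene was also tested in limma over the 6 arrays, where the residual is how far the time differences after the 2 kinds of flow disagree, with 1 degree of freedom. No spread between no flow arrays enters, and any between cultures is hidden by the pooling of RNA. With a constant variance prior 0 genes (0%) passed an adjusted p of 0.05, the smallest being 0.553, and 609 had an unadjusted p under 0.05 where 381 are expected without any difference. With a prior that follows signal, 34 genes (0.447%) were called higher and 67 (0.88%) lower, and 68 of these 101 (67.3%) had the same sign after both kinds of flow, against 36.6% of all genes. Under this prior limma gave a gene's own spread no weight and took the variance from signal alone, so a call says only that a difference was large for its brightness. Slpi, ND1, Col2a1, Fmod and Mmp13 were called in this way, each with an adjusted p of 0.553 in limma under the constant prior. Calls with smaller steps included Mgp, Aqp1, a water channel, with 9.30 and 9.79, and Aoc3, an amine oxidase, with 8.99 and 8.48. With quantile normalization all of these calls rest on the choice of prior. Median scaling gave calls under the constant prior too, where limma again gave a gene's own spread no weight.

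Whether the no flow difference departed from that after flow was tested as a contrast of its own in limma. With the constant prior 0 genes passed (smallest adjusted p 0.623, 562 with an unadjusted p under 0.05), and with the trend 19 had a higher and 24 a lower difference without flow. These included Ccn2, Ccn1, ND1 and Sprr2a1, and 12 of the 101 genes called without flow, and the same limit holds for them. A time effect shared by the 3 conditions, which sets 0 h against 1 h within each of them with 2 residual degrees of freedom, was called for 0 genes with the constant prior (smallest adjusted p 0.163, 991 with an unadjusted p under 0.05) and for 104 higher and 215 lower with the trend. Among the latter were Lmcd1 (limma adjusted p 7.41e-09), Fmod (2.66e-08), Slpi (1.21e-07) and Matn4 (1.21e-07).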

How the data were processed

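Total RNA of MC3T3-E1 cells was hybridized to 6 Illumina arrays (MouseWG-6 v2.0), 1 per condition, and none was left out. The deposited intensity values are probe signals that the authors had background-subtracted in GenomeStudio. The detection p-value that the authors deposited beside each signal was used as given, except for 25281 rows of the rest-inserted flow 1 h array that repeat the signal, where detection was taken from the signal. For the deposited log2 table the authors applied quantile normalization, a floor of 10 and a log2 transformation and kept probes with a detection p under 0.01 on at least 1 array. The same steps repeated here gave its values to within 5.0e-08. Of 15686 probes 13393 had 1 gene symbol in the platform table, 8 several and 2285 none. After 211 RIKEN names were left out, 13182 probes of 8565 genes remained, 3226 of which had more than 1 probe. The RT-PCR and western blot measurements were not analysed here.

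With 1 array per condition the 1 h minus 0 h difference has no replicate test, so a 1.5-fold limit was used over genes detected on both no flow arrays. Tests used limma 3.58.1 in R 4.3.3 with Benjamini-Hochberg adjustment over 7613 genes. On simulated data with 200 changed genes among 7613, the no flow test recovered 76.5% at a log2 change of 1 with the constant prior and 95.5% with the trend. The simulated noise followed signal alone, with no spread particular to a gene, which is what the trend prior assumes. These shares therefore do not say what would be recovered on the arrays, where the constant prior called 0 genes.

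Genes named are the 25 brightest, per list up to 6 by level and 4 by difference, the 15 largest differences in each direction among genes detected on all 6 arrays, the markers, and up to 10 calls per direction. Genes past 1.5-fold with a mean log2 of 7 or more, those past it in all 3 conditions, the other mitochondrial genes, genes at the edge of detection, those with printed promoters and a few further genes were added after their values were seen. Members and the 37 gene lists, drawn from general knowledge, were chosen with earlier results of these data known.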

Additional observations from a re-analysis of the deposited data

How the results depend on the processing

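The counts of 77 higher and 72 lower genes depend on the fold limit, the filter and the scaling. At 2-fold they were 4 and 4, with 5 of the 8 of the same sign after both kinds of flow, against 68 of 149 at 1.5-fold. With all named genes, detected or not, they were 212 and 279, with 159 of 491 of the same sign. Median scaling gave 24 and 237, with 144 of 261 of the same sign. It moved the median no flow difference of all genes to -0.17, against -0.021 without normalization. It used the median of each array's own detected probes, a set that differs between arrays. A floor of 50 left 7 and 21, and counting every named probe gave 143 and 124. Without normalization (62 and 87) and with the mean of all probes (65 and 71) the counts stayed within 1.5 times. Of 43 named differences, 31 moved by at least their limma SE (constant prior) and 0 reversed under median scaling, and 0 moved without normalization. With the mean of all probes 10 moved and 1 reversed, Sirt6, to -0.027, and Pdp1 came to -0.099. A floor of 50 left a difference for 24 of the 43 and moved 6 of these, Ccl2 to -0.24 among them. For the rest of the 43, Rrp1, Dut and Sirt5 among them, both no flow arrays lay under that floor and the difference was lost. Of the 25 brightest genes, 18 to 25 stayed among the 25 brightest under the 5 alternatives. In limma the no flow effect was called for 0 genes with the constant prior, 101 with the trend prior and 88 with median scaling. Its difference from the effect after flow was called for 0, 43 and 43, and the shared time effect for 0, 319 and 94. Leaving out each array in turn, the shared effect was called for 0 genes with the constant prior. With the trend prior, whose combination with leaving out an array was chosen after seeing the data, it was called for 57 to 550 genes, namely 57 and 60 without the continuous flow arrays of 0 h and 1 h, 61 and 64 without the rest-inserted ones, 540 without no flow 0 h and 550 without no flow 1 h, where the variance is set by the flow arrays alone. Leaving out 1 array of a condition also takes that condition out of the estimate of the time effect. Without a no flow array the effect is thus that after the 2 kinds of flow alone. No paired analysis was possible because each condition has replicate 1 alone, other than the shared time effect, which sets 0 h against 1 h within each flow condition. Low signal limits the differences of dim genes, and 1 array per condition limits every count.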
